A study of Mus musculus with 4 samples.

Results

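The CD300 receptors are a family of myeloid cell surface proteins with a single immunoglobulin-type domain, and their genes were described here in the mouse line J774M, labelled as myeloid-derived suppressor cells (MDSCs). Members were the probe sets with a gene symbol that is Cd300 followed by letters or digits, in the authors' deposited table or in the platform annotation. The rule found 9 of the 26246 genes tested (Cd300a, Cd300c, Cd300c2, Cd300e, Cd300lb, Cd300ld, Cd300ld3, Cd300lf and Cd300lg), each with 1 probe set. A further 2 probe sets are annotated to 4 Cd300 genes each and name no single gene. The authors' deposited table calls Cd300ld3 by its older name Cd300lh and Cd300c2 by AF251705. The family was chosen by its symbols, but it was selected on the known difference of Cd300ld between the groups, measured on these 4 arrays. The differences below are therefore a description, and their p-values support nothing about the family.

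Total RNA was measured on 4 whole-transcript Affymetrix arrays. Cells of 2 arrays had received 10 uM NC06 for 24 h, a compound that inhibits neutral ceramidase, the enzyme that breaks ceramide down to sphingosine. Control cells of the same line made up the other 2 arrays, and the sources used here do not give their treatment. The log2 signal of the probe sets had a median of 4.75 and 4.74 in NC06 cells and 4.68 and 4.67 in control cells. Whether the replicates were separate cultures is not labelled, so errors and p-values reflect the spread of these samples alone, and that spread may be technical. Standard errors, intervals and p-values are those of limma, which combines a gene's own spread with a prior estimated from all genes tested. They are therefore not the replicate error of the single gene, whereas the standard deviations (SD) are taken from its own arrays. J774M is a single cell line, so the values hold for this line only.

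CD300 receptors sense lipids and other molecules at the surface of dying or neighbouring cells. The inhibitory members carry tyrosine motifs in their own tails that recruit phosphatases, whereas the activating members have short tails and signal through the adaptors Tyrobp (DAP12) or Fcer1g (the Fc receptor gamma chain). Cd300a is known to bind phosphatidylserine and phosphatidylethanolamine, and mouse Cd300lf is known as a receptor for ceramide, the lipid that neutral ceramidase breaks down. Cd300ld has been described on neutrophils and granulocytic MDSCs, where it takes part in the suppression of T cells.

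Markers of the labelled cell type were bright. All 9 myeloid and macrophage markers, among them Ptprc, Itgam, Csf1r and Spi1, lay above the upper quartile of every array, while 0 of 4 T cell and 0 of 3 B cell markers lay above the median on all arrays. Of 12 neutrophil markers 5 did and 7 did not, and Retnlg lay below the lower quartile on all arrays. Of the 9 myeloid and macrophage markers, 8 were higher on both NC06 arrays than on both control arrays and 1, Fcgr1, was lower, while 23.3% of all genes were higher and 24.4% lower in this way. The summed linear signal of this list was 19803 and 20147 in NC06 cells and 15227 and 15625 in control cells, with differences of 1.21 log2 for Lyz2 (lysozyme), 0.88 for Adgre1 (F4/80) and 0.84 for Itgam (CD11b), and a median of 0.21. Of the neutrophil markers 6 were higher and 1 was lower by the same comparison, with a median difference of 0.27 log2. Their summed linear signal was 2237 and 2053 in NC06 cells and 959 and 1065 in control cells. Most of that sum was Lcn2, at 1641 and 1499 in NC06 cells and 619 and 703 in control cells, and without it the sum was 597 and 554 in NC06 cells and 340 and 362 in control cells. Ly6g and S100a8 had differences of 1.38 and 1.48 log2, whereas 4 of the 12 had negative ones, S100a9 (-0.22), Ngp (-0.28), Csf3r (-0.09) and Mpo (-0.036). CD300 receptors are themselves found on neutrophils and macrophages, and the part of these markers in the differences of the members was not tested. In a bulk sample, a change in the share of cells with a marker and a change in its RNA per cell cannot be told apart.

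The largest difference of the family was that of Cd300ld, an activating receptor. Its signal was 10.26 and 10.19 log2 in NC06 cells and 8.67 on both control arrays. The NC06 values lay far above the control values, and the control arrays almost coincided (SD 0.0014, n = 2, against 0.051 in NC06 cells, n = 2). The difference, NC06 minus control, was 1.55 log2, or 2.94-fold, with a standard error (SE) of 0.078 (95% interval from 1.34 to 1.76). It was the rise ranked 14 among the 26246 genes. The SE, drawn partly from the other genes, was larger than the SD of either group. Cd300lb, an activating receptor that pairs with Tyrobp, had 8.15 and 8.31 log2 in NC06 cells and 7.16 and 7.25 in control cells. Again the groups did not overlap, and the difference was 1.03 log2 (SE 0.096, 95% interval from 0.77 to 1.28, 2.04-fold). A difference of at least 1 log2 upward was seen in these 2 of the 9 members, and in 0.229% of all genes. Both lay above the upper quartile on all 4 arrays.

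Cd300ld3, a close paralog of Cd300ld that signals through Fcer1g, had 6.82 and 6.86 log2 in NC06 cells and 6.33 and 6.29 in control cells. Its difference of 0.53 log2 (SE 0.077) was more than the largest gap of 0.044 between arrays of a group, and the groups did not overlap. Cd300c2, which pairs with Tyrobp, had 4.90 and 4.76 log2 in NC06 cells against 4.07 and 4.46 in control cells. Its control arrays lay below the array medians and differed from each other by 0.40, which limits the precision of its difference of 0.57 (SE 0.16, 95% interval from 0.14 to 1.00). Without control replicate 1 that difference was 0.37, and without control replicate 2 it was 0.77. Cd300e, known in human cells as an activating receptor of monocytes, had 5.64 and 5.48 in NC06 cells and 5.45 and 5.05 in control cells. The higher control array came within 0.031 log2 of the lower NC06 array, and the difference of 0.31 (SE 0.16, 95% interval from -0.13 to 0.74) was smaller than the gap of 0.39 between the control arrays. It was 0.51 without control replicate 1 and 0.11 without control replicate 2.

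Cd300c was nearly level between the groups. It read 5.90 and 5.86 log2 in NC06 cells and 5.86 on both control arrays, a difference of 0.024 (SE 0.076, 95% interval from -0.18 to 0.23). To all deposited digits 3 of its 4 values were identical, which was so for 44 of the 41345 probe sets, and its spread between arrays is therefore not a measure of replicate error.

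The shared probe sets were higher in NC06 cells as well. Probe set 17271751, which the authors' deposited table names Gm11710, a former name of Cd300ld4, had 8.01 and 7.96 log2 in NC06 cells and 7.31 and 7.003 in control cells. Probe set 17271757, named there Gm11711, a former name of Cd300ld5, had 7.73 and 7.92 in NC06 cells and 7.10 and 6.70 in control cells. In both, the groups did not overlap, with differences of 0.83 and 0.93 log2. The platform annotation gives each of them to Cd300ld3, Cd300ld4, Cd300ld5 and Cd300lf, so the signals of these paralogs cannot be told apart there, and the sets were not tested. The probe set of Cd300lf alone differed by far less than either, as given below.

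**Figure D1:**
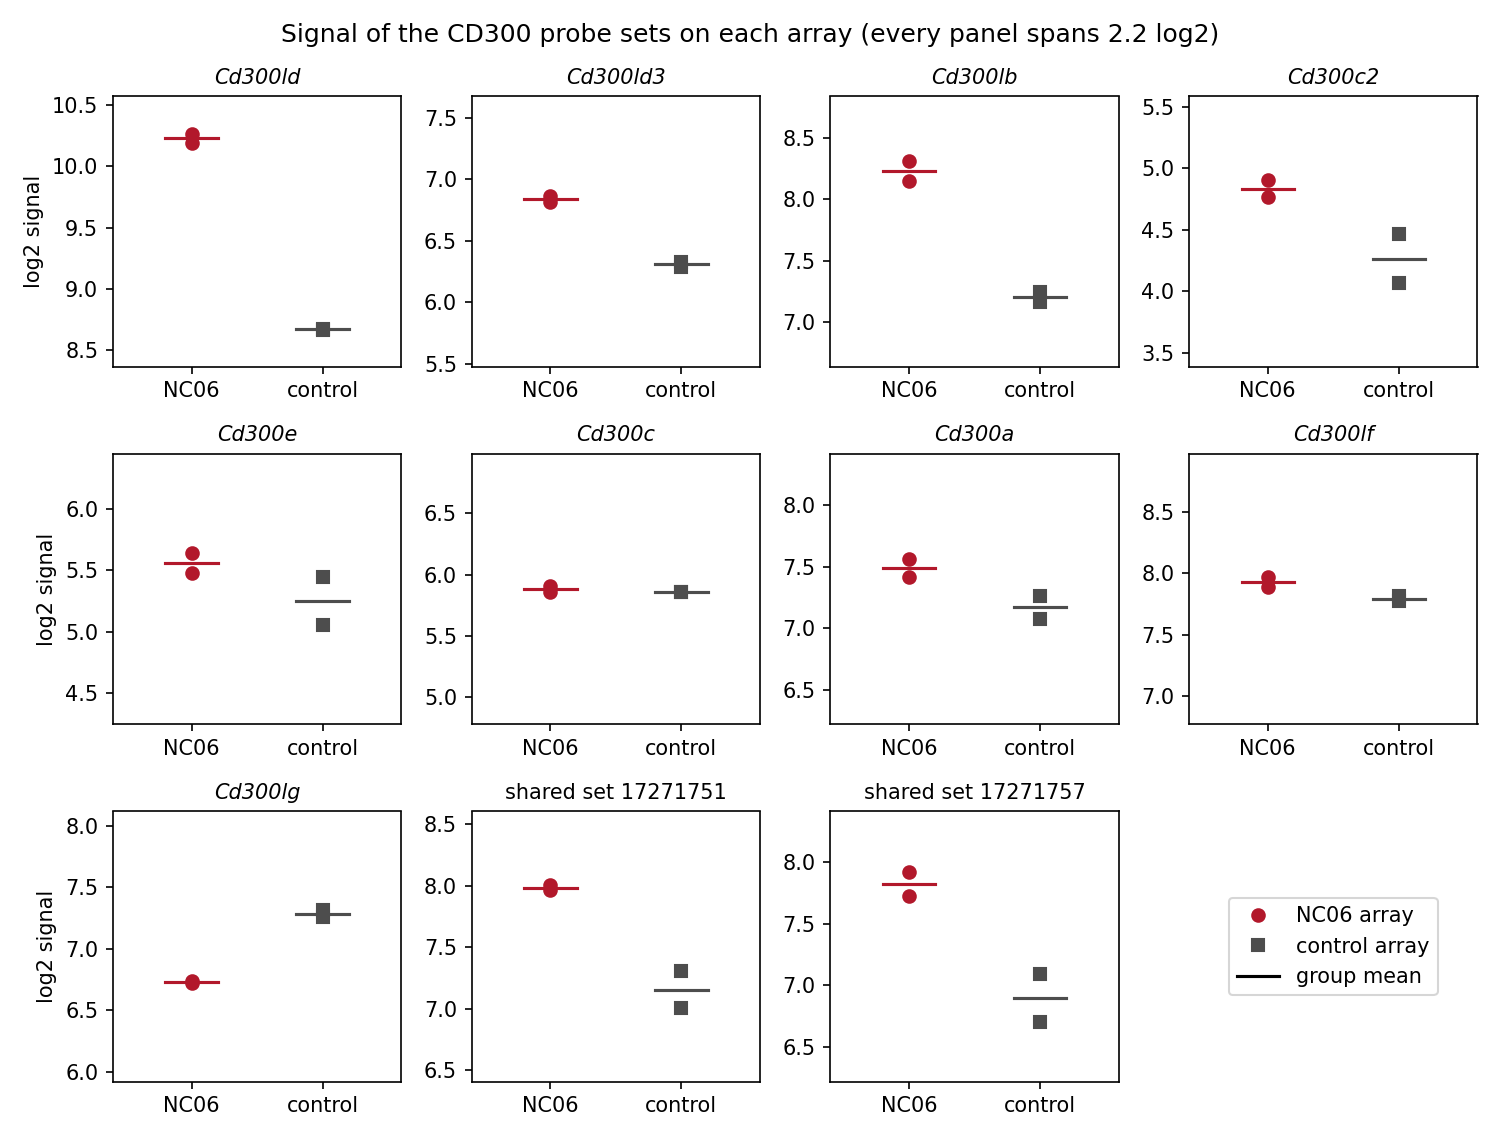
Log2 signal (y axis) of the 9 single-gene and 2 shared CD300 probe sets on the NC06 arrays (circles) and the control arrays (squares), with the group mean as a line; every panel spans the same range of log2, around its own centre. Cd300ld stands at 10.26 and 10.19 in NC06 cells against 8.67 in control cells, Cd300lg is the member with lower NC06 values, and Cd300c and Cd300lf lie nearly level.

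Upstream sequences of the members are shown because the genes of the Cd300ld type resemble each other there as well. The RefSeq promoter table (assembly GRCm38.p6) held 10 Cd300 genes, without Cd300lg and Cd300ld2, and the 250 bases before the annotated start were compared. They are printed 5′ to 3′ on the minus strand, and capitals mark AGGAAGT on either strand, a core of the sites of ETS factors such as PU.1, the myeloid regulator encoded by Spi1. The window of Cd300ld is chr11:114989887-114990136, that of Cd300ld3 chr11:115048331-115048580, that of Cd300ld4 chr11:115026934-115027183 and that of Cd300lb chr11:114934372-114934621.
Cd300ld: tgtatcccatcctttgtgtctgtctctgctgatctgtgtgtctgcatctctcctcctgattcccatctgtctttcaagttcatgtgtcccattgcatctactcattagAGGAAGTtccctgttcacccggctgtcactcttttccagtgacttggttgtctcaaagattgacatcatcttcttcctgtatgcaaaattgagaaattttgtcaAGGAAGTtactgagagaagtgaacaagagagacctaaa
Cd300ld3: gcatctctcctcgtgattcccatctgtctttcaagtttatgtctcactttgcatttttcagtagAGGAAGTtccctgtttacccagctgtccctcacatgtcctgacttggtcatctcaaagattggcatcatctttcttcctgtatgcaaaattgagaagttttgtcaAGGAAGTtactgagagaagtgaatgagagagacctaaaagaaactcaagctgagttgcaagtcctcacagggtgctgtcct
Cd300ld4: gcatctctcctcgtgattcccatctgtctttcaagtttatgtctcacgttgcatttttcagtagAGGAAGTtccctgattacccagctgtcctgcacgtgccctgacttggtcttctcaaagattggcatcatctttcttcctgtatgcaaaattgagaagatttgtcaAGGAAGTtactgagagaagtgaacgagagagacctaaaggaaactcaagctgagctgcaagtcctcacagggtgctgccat
Cd300lb: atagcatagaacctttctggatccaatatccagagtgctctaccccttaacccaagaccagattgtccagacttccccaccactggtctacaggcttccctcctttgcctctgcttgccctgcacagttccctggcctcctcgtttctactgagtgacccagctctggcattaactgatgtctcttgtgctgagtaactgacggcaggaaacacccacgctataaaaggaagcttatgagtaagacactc

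Cd300ld4 and Cd300ld5 had the same 250 bases. Cd300ld3 matched Cd300ld4 at 235 of 246 aligned positions (95.5%), and Cd300ld matched Cd300ld3 at 185 of 210 (88.1%). Every local alignment with a gene other than these 4 was far shorter, at most 30 bases (Cd300c2 with Cd300ld3). For Cd300lb it was at most 22 bases. AGGAAGT occurred in 6 of the 10 windows, those of Cd300ld, Cd300ld3, Cd300ld4, Cd300ld5, Cd300c2 and Cd300e, and in 7.69% of all 32841 promoters of that length. In Cd300ld it began 142 and 38 bases before the start, and in Cd300ld3, Cd300ld4 and Cd300ld5 186 and 81 bases before it. Since 4 of the 6 windows share most of their sequence, they are not independent cases. The windows of Cd300lb, Cd300a, Cd300c and Cd300lf did not hold these letters. Cd300lg, the member with lower signal in NC06 cells, had no window and was not searched. Of 2 other motifs, each searched on both strands, TGANTCA (AP-1) was in 0 of the 10 windows and in 6.75% of all promoters, and TTGCNNAA, as in C/EBP sites, was in that of Cd300a and in 9.57% of all. Neither holds AGGAAGT in its letters, and a match is a description of the sequence, not of binding.

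The inhibitory members had differences of 0.32 and 0.14 log2. Cd300a had 7.41 and 7.56 log2 in NC06 cells and 7.07 and 7.26 in control cells. The groups did not overlap, and the difference of 0.32 (SE 0.11, 95% interval from 0.025 to 0.61, 1.25-fold) compares with a gap of 0.19 between the control arrays. Cd300lf, the ceramide receptor, had 7.89 and 7.97 log2 in NC06 cells and 7.77 and 7.82 in control cells. The groups did not overlap, by a small margin, and the interval of the difference of 0.14 (SE 0.081) ran from -0.08 to 0.35. After median centring the difference was 0.08, and after quantile normalization it was 0.19.

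Cd300lg was the only member with lower signal in NC06 cells. It encodes nepmucin, a receptor known from endothelial cells, where it binds lymphocytes. It had 6.72 and 6.74 log2 in NC06 cells against 7.26 and 7.31 in control cells. The groups were well apart, and the difference was -0.56 log2 (SE 0.077, 95% interval from -0.76 to -0.35, 0.68-fold). On the same arrays the summed linear signal of 4 endothelial markers was 147 and 129 in NC06 cells and 129 and 130 in control cells, and 2 of the 4, Cdh5 and Pecam1, lay above the median on every array.

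Across the family, the NC06 arrays were both higher than either control array in 7 of the 9 members and both lower in 1, with Cd300c left over. Over all genes this was so in 23.3% upward and 24.4% downward. The median difference of the members was 0.32 log2, and that of all genes 0.002. In the limma fit 0 of the 9 members passed an adjusted p of 0.05, nor did any gene (0.0% of 26246). Their adjusted p ran from 0.0542 for Cd300ld and 0.0865 for Cd300lb to 0.914 for Cd300c. At an unadjusted p under 0.05 there were 5 members higher (Cd300ld, Cd300lb, Cd300ld3, Cd300c2 and Cd300a) and 1 lower (Cd300lg), against 7.79% and 7.52% of all genes.

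The number of members past the threshold changed with the filter, the variance prior and the scaling. With only the genes above the median signal tested, which removes Cd300c2, 4 of the 8 remaining members passed (Cd300ld, Cd300lb, Cd300ld3 and Cd300lg), as did 6.37% of the genes. The same 4 passed when limma's variance prior followed the signal and was fitted robustly, where 5.56% of the genes did. Without the lowest signal quartile Cd300ld and Cd300lb passed, with 0.676% of the genes. Cd300ld alone passed after median centring, where 0.0991% of the genes did, and after quantile normalization, where 0.0495% did.

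The receptors lie together on mouse chromosome 11, apart from Cd300lg. In the RefSeq gene table, used here for the order of genes only, 11 Cd300 genes form a cluster from Cd300a to Cd300lf, and 146 protein-coding genes separate Cd300lg from it. Along the cluster the differences were 0.32 for Cd300a, 1.03 for Cd300lb, 0.024 for Cd300c, 1.55 for Cd300ld, 0.57 for Cd300c2, 0.53 for Cd300ld3, 0.31 for Cd300e and 0.14 for Cd300lf. The members with the largest differences, Cd300lb and Cd300ld, thus stand on either side of Cd300c. Cd300ld4, Cd300ld2 and Cd300ld5, between Cd300c2 and Cd300ld3, have no probe set of their own here.

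The genes around the cluster had small differences in both directions. Of 11 neighbours, the 5 measured protein-coding genes on each side and Rab37, 0 passed the limma threshold over all genes, with 1 higher and 1 lower at an unadjusted p under 0.05 (over all genes 7.79% were higher and 7.52% lower), and the median was 0.12 log2. The 3 with the smallest p were Tmem104, which had 9.17 and 9.20 log2 in NC06 cells against 8.87 and 8.92 in control cells (difference 0.29), Fdxr, a mitochondrial reductase that p53 is known to induce (difference -0.25), and Gpr142, a receptor for aromatic amino acids (difference 0.25). Rab37, whose annotated span contains that of Cd300lf on the chromosome, had 4.39 and 4.06 in NC06 cells and 4.13 and 4.02 in control cells, below the array medians, with overlapping groups.

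**Figure D2:**
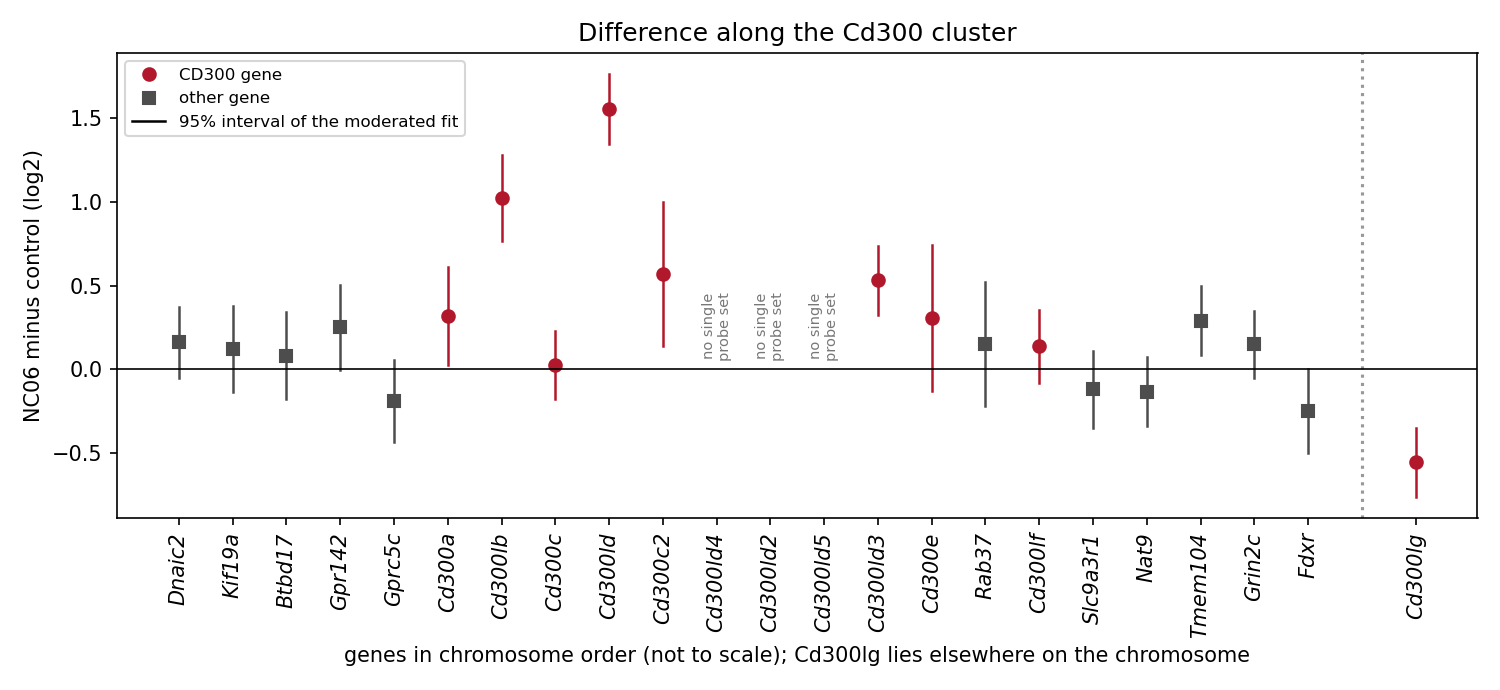
Difference NC06 minus control in log2 (y axis) of the genes of the Cd300 cluster and of its neighbours in chromosome order, not to scale, with Cd300lg at the right. Points are the estimates and lines their 95% intervals in the limma fit; circles are CD300 genes and squares other genes. Cd300ld (1.55) and Cd300lb (1.03) stand above the neighbours, which lie between -0.25 and 0.29.

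The adaptors and signalling proteins of the family had differences between -0.29 and 0.44 log2. Of 19 measured genes in a list of 20, 0 passed the limma threshold over all genes, with 2 higher and 2 lower at an unadjusted p under 0.05 (over all genes 7.79% were higher and 7.52% lower) and a median of 0.031 log2. The smallest p belonged to the Src-family kinase Fgr (4.98 ± 0.18 log2 in NC06 cells and 4.54 ± 0.11 in control cells, SD, n = 2 each, difference 0.44), the phosphatase Ptpn11 (SHP-2, difference -0.26) and Card9 (an adaptor downstream of Syk, difference -0.29). Both adaptors of the activating receptors were measured. Tyrobp had 7.03 and 6.92 in NC06 cells and 6.79 and 6.75 in control cells, a difference of 0.20 (SE 0.084). Fcer1g had 12.60 and 12.42 in NC06 cells and 12.34 and 12.40 in control cells, a difference of 0.14 (SE 0.097). Ptpn6 (SHP-1), a phosphatase that the inhibitory receptors recruit, had 11.53 and 11.52 in NC06 cells and 11.70 and 11.65 in control cells, a difference of -0.15 (SE 0.076).

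Genes for the lipids that CD300 receptors bind were taken as a list of 27, covering exposure and synthesis of phosphatidylserine and phosphatidylethanolamine and the supply and removal of ceramide. In limma 0 of them passed over all genes, with 6 higher and 1 lower at an unadjusted p under 0.05 (over all genes 7.79% were higher and 7.52% lower) and a median of 0.065 log2. The 3 with the smallest p use or make ceramide. The desaturase Degs1, which forms ceramide, had 9.98 and 9.94 in NC06 cells and 9.50 and 9.56 in control cells (difference 0.43). The ceramide kinase Cerk had 9.16 on both NC06 arrays and 8.53 and 8.73 in control cells (difference 0.53), and the glucosylceramide synthase Ugcg had 8.85 and 8.80 in NC06 cells and 8.42 and 8.50 in control cells (difference 0.37). Xkr8, a scramblase that exposes phosphatidylserine, had 6.90 and 6.61 in NC06 cells and 6.75 and 6.63 in control cells, with overlapping groups. Asah2, the target of NC06, had 8.37 and 8.71 in NC06 cells and 8.39 on both control arrays, also overlapping.

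TREM receptors, another set of myeloid receptors with a single immunoglobulin-type domain and activating members that pair with Tyrobp, were set beside the family. Trem1, which amplifies inflammatory responses of neutrophils and monocytes, had 8.68 and 8.45 log2 in NC06 cells and 7.16 and 7.24 in control cells, a difference of 1.37 (SE 0.11, adjusted p 0.0793 in limma). The other 5 lay between -0.22 and 0.15. Trem3 had 6.80 and 6.70 in NC06 cells against 7.05 and 6.88 in control cells (difference -0.22), and Trem2, a lipid receptor of macrophages, had 10.07 on both NC06 arrays and 9.95 and 9.89 in control cells (difference 0.15). In limma 0 of the 6 passed over all genes, 1 was higher and 0 lower at an unadjusted p under 0.05 (over all genes 7.79% were higher and 7.52% lower), and the median was 0.081 log2. The difference between the families was not tested.

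**Figure D3:**
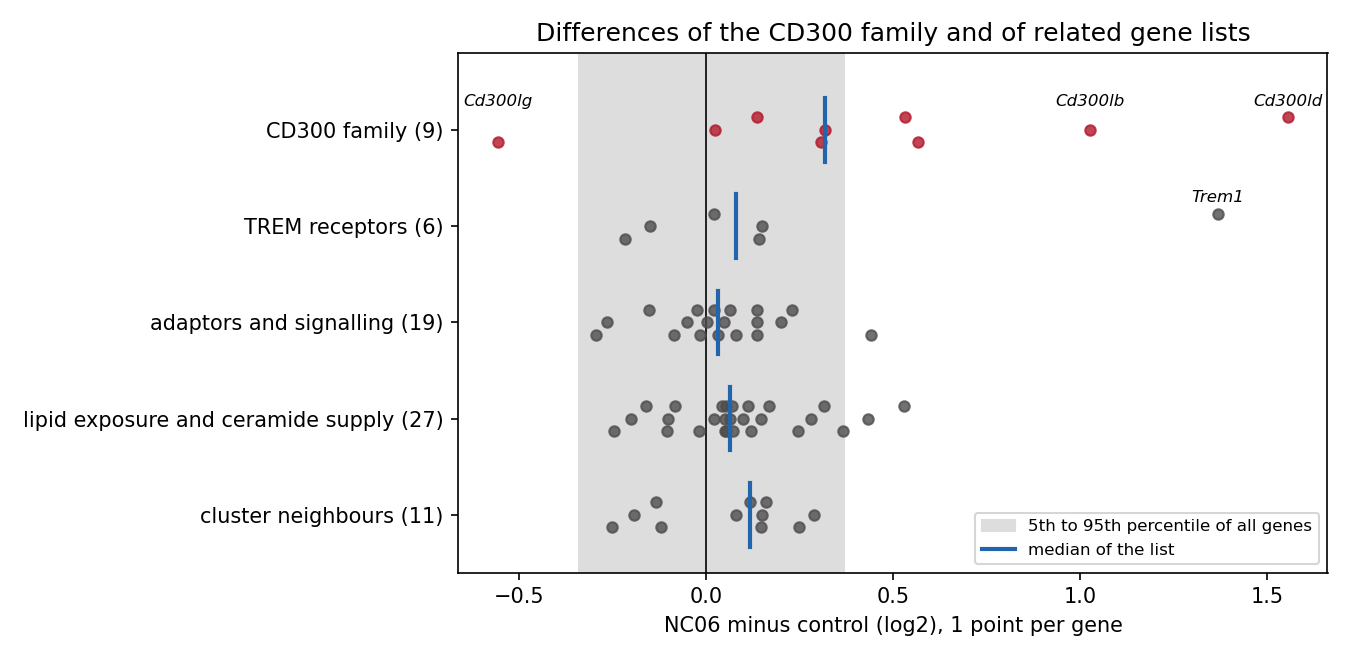
Difference NC06 minus control in log2 (x axis), 1 point per gene, for the CD300 family and 4 related lists, with the number of genes in brackets, the median of each list as a line and the range from the 5th to the 95th percentile of all genes shaded (-0.34 to 0.37). Cd300ld, Cd300lb and Trem1 lie farthest to the right and Cd300lg lies to the left of the shaded range, while the list medians lie within it.

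Genes with the most similar pattern were sought for each of the 8 members above the median signal, as the 3 named genes with the smallest Euclidean distance over the 4 arrays, each centred on its own mean, among 11555 genes. Cd300ld was followed most closely by Tm4sf1 (distance 0.058 log2), the membrane metalloproteinase Adam8 (0.084) and Pilra (0.0995), an inhibitory receptor of myeloid cells with 9.003 and 8.91 log2 in NC06 cells and 7.52 and 7.41 in control cells. For Cd300lb they were the anthrax toxin receptor Antxr2 (0.086), the spermine oxidase Smox (0.092) and the nuclear RNA Malat1 (0.094). For Cd300ld3 they were Blcap, Arrdc3 and Lpxn (0.015 to 0.034), and for Cd300a Aldh1l1, Glb1l and Atat1 (0.014 to 0.024). Cd300lg was nearest to Pmvk and Acss2, enzymes of the mevalonate pathway and of acetyl-CoA synthesis, and to Peg10 (0.024 to 0.036). Cd300e was nearest to Zfp992, Cracr2b and Gal3st2b (0.028 to 0.036). Cd300lf was nearest to Dhrs11, Tmem150a and Ambra1 (0.0075 to 0.011), and Cd300c to Ctbp2, Trim59 and COX1 (0.0097 to 0.013). With 4 arrays in 2 groups, the distance mostly reflects the size of the difference.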

How the data were processed

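RNA of 4 J774M samples was hybridised to 1 whole-transcript array each, and the titles gave the groups and replicate numbers. The authors deposited log2 signals for each probe set. Partek is the tool named, per the submitters' processing notes, while its version and the background correction, normalization and summarization are not given in the sources used here. A second deposited table of the authors holds a ratio of NC06 over control per pair and for the means, and a p-value per probe set. The log2 of its ratios equalled differences of the value table within 8.8e-05, which settles scale and direction.

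Of 41345 probe sets, 23521 took a single gene from the platform annotation and 4311 a symbol of the authors' deposited table that a RefSeq gene table (GRCm38.p6) held. The 1820 with several genes and 11693 without a name were not tested. For 1284 genes with several probe sets the one with the highest mean was used. Differences were tested with limma 3.58.1 in R 4.3.3 (lmFit, eBayes, two-sided, Benjamini-Hochberg over 26246 genes, threshold 0.05) with 2 residual and 2.36 prior degrees of freedom. The fit was also run on simulated data, where only the mean of the estimates was required to be right. Nothing was required there of the number of genes passing the threshold. Python 3.11.15 with pandas 2.3.3 prepared the tables, and Biopython 1.88 made the local alignments. Members, lists and motifs were chosen with earlier results of these data known. From each list the 3 genes with the smallest p are named, and others (Tyrobp, Fcer1g, Ptpn6, Xkr8, Asah2 and Rab37) were chosen after their values were seen. The neighbour list leaves Cd300lg out of the cluster, a choice made once the gene order was seen. Array number limits the precision. The alternatives are those of the closing section.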

Additional observations from a re-analysis of the deposited data

How the results depend on the processing

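Over 12 alternatives, the 9 members gave 107 differences. Of these, 92 kept their direction and their side of the adjusted threshold, and 12 kept their direction and came to pass it. A further 2 reversed, and 1 was 0, that of Cd300c without NC06 replicate 1. Fits with the replicate block or without 1 array leave fewer residual degrees of freedom than the main fit. Staying on the same side of the threshold says little there, and the 92 include those fits. Both signal filters, the trend and robust prior, the replicate block, the mean of probe sets and the authors' ratios leave the members' differences unchanged. Direction was fixed in advance under these alternatives, so keeping it there shows nothing, and both the 92 and the 12 include them. Both reversals were those of Cd300c, at -0.032 after median centring and -0.0081 after quantile normalization. Median centring moves every gene's difference by the same amount, and the median of all genes went from 0.002 to -0.054. The difference of Cd300c as deposited, 0.024, was smaller than that shift. Why its sign changed after quantile normalization was not tested. The difference of Cd300ld lay between 1.499 and 1.59 log2 and that of Cd300lg between -0.61 and -0.52. Relative to their size, ranges were wider for Cd300e (0.11 to 0.51), Cd300c2 (0.37 to 0.77), Cd300a (0.22 to 0.41) and Cd300lf (0.08 to 0.19). The number of genes past the threshold was 0 as deposited, 2 with the mean of a gene's probe sets, 13 after quantile normalization, 26 after median centring, 133 without the lowest signal quartile, 836 without the genes below the median signal and 1459 with the trend and robust prior. CD300 members numbered 0, 0, 1, 1, 2, 4 and 4 in the same order. Trem1 made the TREM count 1 under each of the last 3 settings. Of the lipid list 3 passed without the genes below the median signal and 5 with the trend and robust prior, which also passed 2 adaptor and signalling genes and 1 neighbour. The filters tested fewer genes and also estimated the variance prior again from the genes left. The trend and robust setting fitted the prior to the signal. Which of these steps changed the counts was not tested. Without any 1 of the 4 arrays the family median was 0.37 to 0.41 log2, against 0.32 with all arrays. It was 0.41 without control replicate 2. The authors' deposited p-values, adjusted, gave 0 genes. With the replicate number as a block 0 genes and 0 members passed. The numbers are not said to pair cultures, and the deviations of same-numbered arrays had a correlation of 0.032 across all genes and 0.15 across the 13123 brighter ones. Cd300c2 was the dimmest member, with 2 of its 4 arrays above the array median, and the background level was not measured.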
